A study of Mus musculus with 11 samples.

Results

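The IFITM genes encode small interferon-induced transmembrane proteins. 5 of them are described here across mouse B cell leukemia and B cell progenitors: Ifitm1, Ifitm2, Ifitm3, Ifitm6 and Ifitm10, of the 24319 genes in the deposited tables. They were chosen because Ifitm1 was far higher in leukemic cells and in cultured mutant progenitors than in wild-type progenitors, and the other 4 were added as its relatives. The levels against wild-type progenitors are therefore a description and carry no test. Tests are given only for leukemic cells against mutant progenitors and for the leukemias of different mice against each other.

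IFITM proteins sit in the cell surface and endosome membranes, where they make it harder for enveloped viruses to fuse with the cell. Ifitm1, Ifitm2 and Ifitm3 are classic targets of type I and type II interferon, whose receptors signal through JAK kinases to transcription factors, among them a complex with IRF9 that binds the interferon-stimulated response element. In human B cells IFITM1 was described as Leu-13, a partner of CD81, and human IFITM3 has been tied to PI3 kinase signalling in B cells and B cell leukemia. Ifitm6 and Ifitm10 are less studied.

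RNA was sequenced from 11 libraries of C57BL/6J mice. The B-ALL libraries came from leukemic lymph node cells of 3 Ebf1+/- Pax5+/- mice, numbered 760, 713 and 686, with 2 libraries per mouse. The dHet proB libraries (3) were Ebf1+/- Pax5+/- Rag2-/- cells, which the series' design text describes as pre-leukemic. They were c-Kit+ fetal liver cells cultured briefly on the OP9 stromal feeder line, with 5 ng/ml IL-7 and 10 ng/ml each of Flt3 ligand and SCF. The wt proB libraries (2) were Fraction BC cells sorted from bone marrow and intact at Ebf1, Pax5 and Rag2. B-ALL and dHet proB thus share the heterozygous loss of Ebf1 and Pax5, while only dHet proB lacked Rag2. The ages of the mice and the sort markers were not stated in the labels. Rag2 genotype, tissue, culture and leukemia change together between the groups and cannot be told apart. Nothing in the labels shows whether each dHet proB or wt proB library was a separate culture or animal. The p-values here thus gauge library-to-library spread, possibly only technical. The third dHet proB library is titled replicate 3 but has a source name that says replicate 2.

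Values are FPKM, fragment numbers scaled by transcript length and by the mapped fragments of the library. A difference is a difference of log2(FPKM + 1) and therefore understates the change of a gene at low FPKM. The 2 libraries of a mouse were averaged, so that B-ALL has n = 3 mice. All 10 B lineage markers were at 1 FPKM or more in every library. Their summed FPKM was 6270 to 9030 in B-ALL, 8480 to 10900 in dHet proB and 7500 to 7890 in wt proB. In B-ALL 4 of them fell and none rose against dHet proB, beside 11% and 14.5% of all genes. Against wt proB 2 fell and none rose in B-ALL, beside 10% and 8.15%, and none passed in dHet proB. Ebf1 averaged 177 ± 19.3 FPKM in B-ALL (SD, n = 3), 316 ± 46.9 in dHet proB (n = 3) and 420 ± 173 in wt proB (n = 2). Rag2 transcript averaged 10.4 ± 2.0 FPKM in the Rag2-/- dHet proB libraries (n = 3) and 34.5 ± 4.72 in wt proB (n = 2). The deleted part of Rag2 is not given, so its FPKM does not check the label.

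4 of the members form a cluster on chromosome 7 together with the bone gene Ifitm5, in the order Ifitm5, Ifitm2, Ifitm1, Ifitm3, Ifitm6, and Ifitm10 lies apart on the same chromosome. The windows of 300 bases around their RefSeq starts (250 before, 50 after, assembly GRCm38.p6) are shown because the genes of the cluster differed from each other across libraries. Capitals mark matches to GAAANNGAAA, the core of the interferon-stimulated response element, and to TTCNNNGAA, the STAT-type gamma-activated site. In Ifitm3 the second GAAANNGAAA match overlaps the TTCNNNGAA match.
Ifitm1, chr7:140967826-140968125, plus strand: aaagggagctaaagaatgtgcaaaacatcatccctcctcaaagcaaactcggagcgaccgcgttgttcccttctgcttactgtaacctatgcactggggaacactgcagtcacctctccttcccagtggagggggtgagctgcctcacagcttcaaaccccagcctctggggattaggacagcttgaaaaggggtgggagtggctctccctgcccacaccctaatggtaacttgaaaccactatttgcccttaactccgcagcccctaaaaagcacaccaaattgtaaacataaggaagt
Ifitm2, chr7:140955912-140956211, minus strand: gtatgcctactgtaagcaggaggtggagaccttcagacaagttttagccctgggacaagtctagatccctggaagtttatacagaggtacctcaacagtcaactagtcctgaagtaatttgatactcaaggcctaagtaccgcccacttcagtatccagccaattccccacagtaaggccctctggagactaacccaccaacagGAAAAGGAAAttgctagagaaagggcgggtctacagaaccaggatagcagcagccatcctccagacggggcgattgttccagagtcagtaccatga
Ifitm3, chr7:141010695-141010994, minus strand: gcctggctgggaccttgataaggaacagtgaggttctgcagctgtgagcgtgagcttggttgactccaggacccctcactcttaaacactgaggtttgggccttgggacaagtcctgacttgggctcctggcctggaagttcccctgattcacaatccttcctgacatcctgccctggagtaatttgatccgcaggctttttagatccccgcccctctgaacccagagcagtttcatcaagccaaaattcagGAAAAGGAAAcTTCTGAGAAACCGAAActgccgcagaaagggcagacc
Ifitm6, chr7:141016843-141017142, minus strand: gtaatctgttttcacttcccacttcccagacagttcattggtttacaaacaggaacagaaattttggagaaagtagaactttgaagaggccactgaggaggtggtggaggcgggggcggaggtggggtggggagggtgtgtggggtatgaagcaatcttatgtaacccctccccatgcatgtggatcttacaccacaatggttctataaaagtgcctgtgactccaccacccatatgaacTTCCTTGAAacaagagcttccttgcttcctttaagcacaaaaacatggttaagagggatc

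Counted with the start site as 1, GAAANNGAAA began at -46 in Ifitm2 and at 3 and 20 in Ifitm3. TTCNNNGAA began at 14 in Ifitm3 and at -10 in Ifitm6. The window of Ifitm1 held no match to these motifs or to the EBF-type palindrome TCCCNNGGGA, all searched on both strands. For Ifitm1 and Ifitm6, 3 transcript starts each are annotated, but only 1 window each was searched. TCCCNNGGGA was found in 2 of the 3 windows of Ifitm10, which overlap. Of 32851 windows of the same length, 3.44% held GAAANNGAAA, 8.3% held TTCNNNGAA and 0.904% held TCCCNNGGGA. Among interferon-stimulated genes, 17 of the 32 with a window held GAAANNGAAA. A match is only a run of letters in this window, and its absence says nothing of the factor.

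Ifitm1 was the member with the widest range. It stood at 1120 and 979 FPKM in mouse 760, 50.5 and 49.6 in mouse 713, with 141 and 160 in mouse 686. The dHet proB libraries held 186, 95.9 and 532 FPKM, and the wt proB libraries 3.04 and 5.81. Every B-ALL and every dHet proB library was above both wt proB libraries, and the B-ALL and dHet proB libraries overlapped. The same separation from wt proB, upward, was seen for 23.5% of the 11110 filtered genes in B-ALL and 18.9% in dHet proB.

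By rank from the highest of 24319 genes, Ifitm1 was 48 and 54 in mouse 760, 2507 and 2552 in mouse 713, with 922 and 815 in mouse 686. The dHet proB ranks were 553, 1319 and 102, and the wt proB ranks 9081 and 7777. In mouse 760 it was thus among the most abundant transcripts of the table.

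The mean of Ifitm1 was 417 ± 550 FPKM in B-ALL (SD, n = 3), 272 ± 230 in dHet proB (n = 3) and 4.43 ± 1.96 in wt proB (n = 2). The ratio of means was 94.2 for B-ALL over wt proB and 61.4 for dHet proB over wt proB. On the log2 scale the difference was 5.26 (SE 1.18) for B-ALL minus wt proB and 5.35 (SE 1.18) for dHet proB minus wt proB. Both share the same wt proB libraries, and Ifitm1 was chosen by these contrasts, in which 18.2% and 8.68% of all genes tested passed in either direction. In bulk RNA, fewer cells with a transcript and less transcript per cell cannot be told apart.

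**Figure D1:**
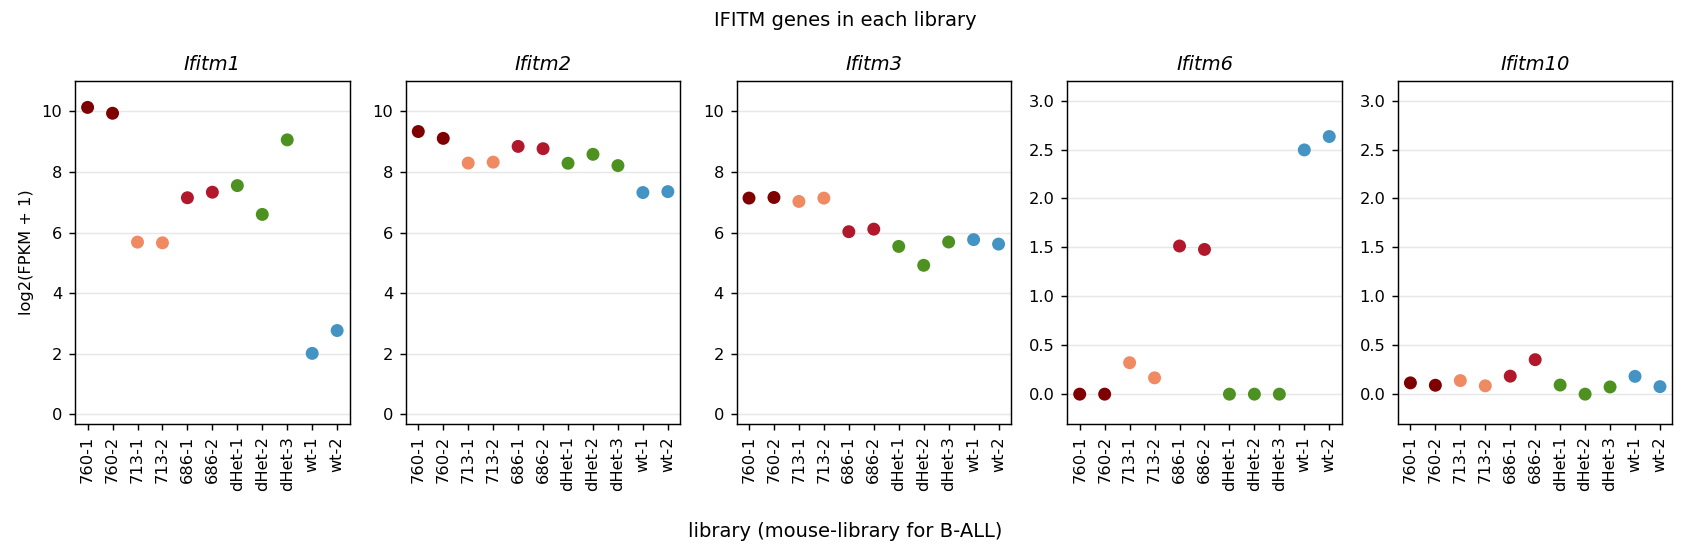
Level of each IFITM gene, as log2(FPKM + 1), in each of the 11 libraries, with one point per library and the libraries on the horizontal axis as mouse-library for B-ALL, then dHet proB and wt proB. Ifitm1 spans 979 to 1120 FPKM in mouse 760 down to 3.04 FPKM in a wt proB library, and Ifitm6 and Ifitm10 have a smaller vertical scale.

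Ifitm2 was high in every library and steadier. It stood at 644 and 551 FPKM in mouse 760, 313 and 319 in mouse 713, with 458 and 435 in mouse 686. The dHet proB libraries held 311, 382 and 295 FPKM, and the wt proB libraries 159 and 162. All B-ALL and dHet proB libraries were above the wt proB libraries, as for 23.5% of the filtered genes in B-ALL and 18.9% in dHet proB.

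The mean of Ifitm2 was 453 ± 141 FPKM in B-ALL (SD, n = 3), 330 ± 46.4 in dHet proB (n = 3) and 161 ± 2.35 in wt proB (n = 2). That was 2.82 times as high in B-ALL as in wt proB and 2.05 times as high in dHet proB as in wt proB. The log2 differences were 1.44 (SE 0.26) and 1.02 (SE 0.26). The value of Ifitm2 is uncertain in another way, because 48.5% of its 50-base words also occur in other transcripts of the GENCODE M21 set. Most of these lie in the overlapping gene model Gm45717 or in pseudogenes, and the part shared with Ifitm3 is small. The share was 5.02% for Ifitm1, 10.0% for Ifitm3, 0 for Ifitm6 and 3.51% for Ifitm10. How the authors' counting split such reads, and whether it used strand, was not stated in the labels.

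Ifitm3 was lowest among the leukemias in mouse 686, whereas Ifitm1 was lowest in mouse 713. It stood at 140 and 142 FPKM in mouse 760, 129 and 140 in mouse 713, with 64.3 and 68.2 in mouse 686. The dHet proB libraries held 45.6, 29.3 and 50.6 FPKM, and the wt proB libraries 53.5 and 48.2. Every B-ALL library was above every dHet proB and wt proB library, and the dHet proB and wt proB libraries overlapped.

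The mean of Ifitm3 was 114 ± 41.4 FPKM in B-ALL (SD, n = 3), 41.8 ± 11.2 in dHet proB (n = 3) and 50.8 ± 3.73 in wt proB (n = 2). It was 2.24 times as high in B-ALL as in wt proB, a log2 difference of 1.07 (SE 0.36). The dHet proB level was 0.823 of the wt proB level, a log2 difference of -0.31 (SE 0.36). Thus Ifitm1 and Ifitm2 were higher than wt proB in every library of both mutant groups, and Ifitm3 in every library of B-ALL but not of dHet proB. Such upward separation was seen for 23.5% of the filtered genes in B-ALL and 18.9% in dHet proB, and Ifitm1 was chosen by it.

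Against wt proB, Ifitm6 went the opposite way to Ifitm1 and Ifitm2. It was at 0 in both libraries of mouse 760, at 0.249 and 0.123 FPKM in mouse 713, and at 1.86 and 1.79 in mouse 686. All 3 dHet proB libraries were listed at 0, and the wt proB libraries held 4.64 and 5.20 FPKM. The wt proB libraries were above all others, and within B-ALL mouse 686 was the highest. Such separation, downward from wt proB, was seen for 24.7% of the filtered genes in B-ALL and 24.1% in dHet proB.

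The mean of Ifitm6 was 0.669 ± 1.0 FPKM in B-ALL (SD, n = 3) and 4.92 ± 0.399 in wt proB (n = 2), with dHet proB listed at 0. The B-ALL level was 0.136 of the wt proB level. The log2 difference was -1.98 (SE 0.40) for B-ALL minus wt proB and -2.56 (SE 0.40) for dHet proB minus wt proB. Both depend on the pseudocount at this level.

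Neutrophil markers moved with Ifitm6. Their summed FPKM over 10 genes, such as Ngp, S100a8 and Camp, which encode neutrophil granule and cytosolic proteins, was 0.371 and 0.62 in mouse 760, 1.65 and 2.12 in mouse 713, with 51.1 and 50.5 in mouse 686. The dHet proB libraries held 3.15, 1.15 and 0 FPKM, and the wt proB libraries 415 and 444. At 1 FPKM or more stood 6 of the 10 genes in both libraries of mouse 686, at most 1 in the other B-ALL libraries and in dHet proB, and all 10 in wt proB. Elane, Retnlg and Mmp8 were at 0 in mouse 760 and in dHet proB. All 10 markers fell against wt proB in B-ALL and in dHet proB, beside 10% and 6.5% of all genes. The part of these markers in the level of Ifitm6 was not tested. Monocyte markers were also high in wt proB, at a summed FPKM of 39.4 to 242 in B-ALL, 17.6 to 64.3 in dHet proB and 216 to 327 in wt proB. Their part was not tested either.

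**Figure D2:**
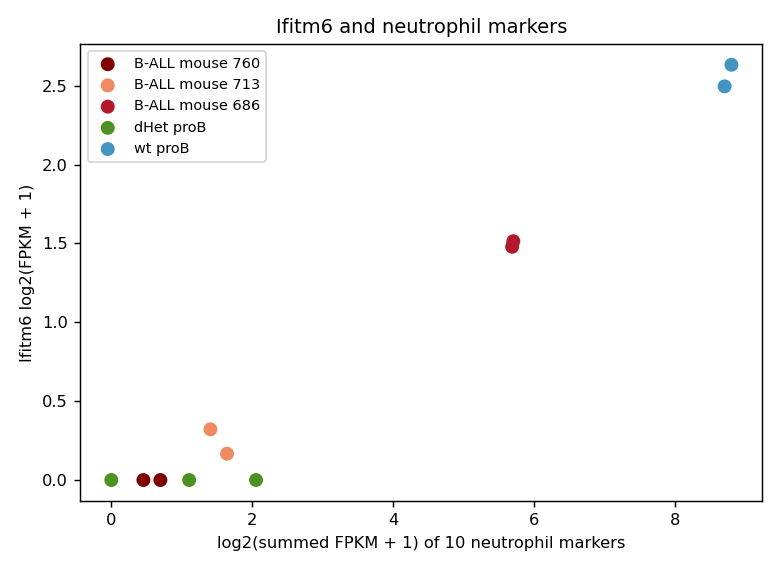
Ifitm6 level, as log2(FPKM + 1), on the vertical axis against the summed FPKM of 10 neutrophil markers, as log2(sum + 1), on the horizontal axis, with one point per library. The wt proB libraries, at summed marker FPKM of 415 and 444, and mouse 686, at 51.1 and 50.5, hold the highest Ifitm6.

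Ifitm10 was near 0 in every library and below the filter of 1 FPKM in at least 2 units, so that 4 of the 5 members could be tested. It stood at 0.0832 and 0.0652 FPKM in mouse 760, 0.101 and 0.0608 in mouse 713, with 0.136 and 0.277 in mouse 686. The dHet proB libraries held 0.0666, 0 and 0.0524 FPKM and the wt proB libraries 0.134 and 0.0547. The groups overlapped.

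FPKM is per length, so members can be set beside each other within a library. Ifitm2 was the highest member in every library except both of mouse 760 and the third dHet proB library, where Ifitm1 was. The ratio of Ifitm1 to Ifitm2 was 1.74 and 1.78 in mouse 760, 0.161 and 0.155 in mouse 713, with 0.308 and 0.368 in mouse 686. It was 0.599, 0.251 and 1.81 in dHet proB, with 0.0191 and 0.0358 in wt proB. Ifitm1 thus made up 58.8% and 58.6% of the summed IFITM FPKM in mouse 760, but 1.38% and 2.62% in wt proB.

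The summed FPKM of the 5 members was 1900 and 1670 in mouse 760, 493 and 509 in mouse 713, and 665 in each library of mouse 686. It was 543, 508 and 878 in dHet proB, with 220 and 221 in wt proB. All B-ALL and dHet proB libraries were above wt proB. As a share of all FPKM in the table, this was 0.0771% to 0.301% in B-ALL, 0.0868% to 0.174% in dHet proB, with 0.0398% and 0.0425% in wt proB. The ratio of Ifitm2 to Ifitm3 was 4.61 and 3.88 in mouse 760, 2.42 and 2.29 in mouse 713, 7.13 and 6.38 in mouse 686, 6.82, 13.1 and 5.83 in dHet proB, with 2.97 and 3.37 in wt proB.

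**Figure D3:**
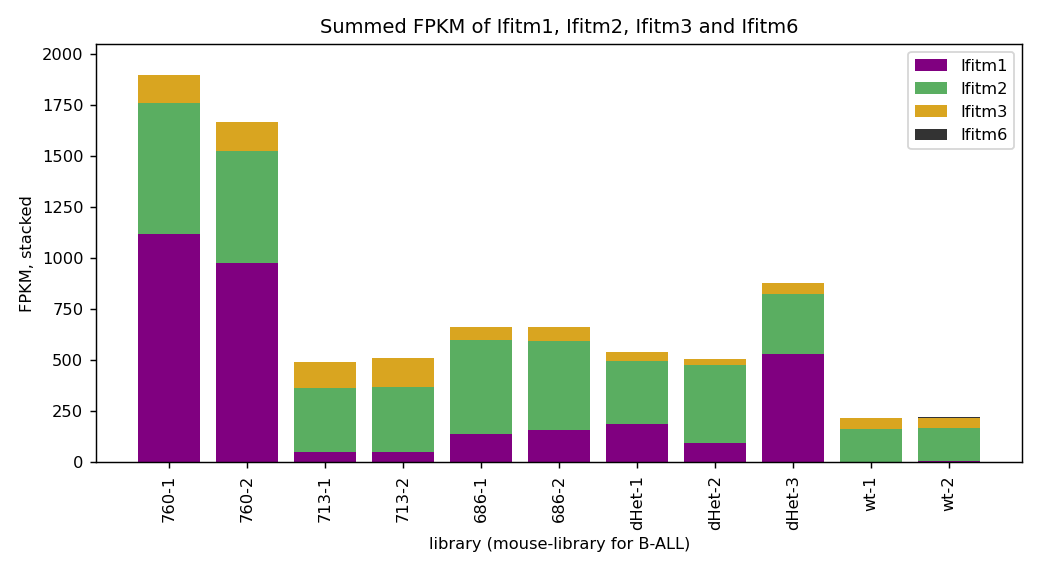
Summed FPKM of Ifitm1, Ifitm2, Ifitm3 and Ifitm6 in each library, as stacked bars, one bar per library, with FPKM on the vertical axis. The bars of mouse 760 reach 1900 and 1670 FPKM, mostly Ifitm1, and the wt proB bars reach 220 and 221 FPKM, mostly Ifitm2.

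Leukemic cells were then set against dHet proB cells, which carry the same Ebf1 and Pax5 genotype. Ifitm3 rose in B-ALL, by 1.38 on the log2 scale (SE 0.32, 95% interval 0.65 to 2.12), with means of 114 and 41.8 FPKM in B-ALL and dHet proB and a ratio of 2.72 (limma adjusted p = 0.0182). It was the only one of the 4 tested members that passed, and of all 11110 genes tested 25.5% passed, 14.5% as higher. No overlap between the libraries, with B-ALL higher, was found for 19.5% of all genes. Ifitm3 therefore stood in a comparison in which many genes differed. When FPKM was rescaled to TPM, the split of all calls changed from 1614 higher and 1218 lower to 1113 higher and 1730 lower, the median of all genes from 0.04 to -0.12, and Ifitm3 was 1.21, or 1.33 above that median. Without the first dHet proB library, Ifitm3 was 1.46 with an adjusted p of 0.05, just short of the threshold.

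The other tested members did not pass. Ifitm2 was 0.42 higher on the log2 scale in B-ALL (SE 0.24, 95% interval -0.13 to 0.96, adjusted p = 0.223) and Ifitm6 was 0.58 higher (SE 0.36, interval -0.25 to 1.41, adjusted p = 0.264). Ifitm1 had a log2 difference of -0.09 (SE 1.05, interval -2.51 to 2.34, adjusted p = 0.961). Its ratio of means was 1.53, above 1, because mouse 760 dominates the mean of FPKM. The interval of Ifitm1 reaches far to both sides of 0, so that no difference was detectable with this spread. An exact permutation test of 3 units against 3 could not give a two-sided p below 0.1.

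Beside Ifitm3, most markers of T cells and some of monocytes were also higher in B-ALL than in dHet proB. T cell markers rose for 7 of 9 genes tested, with a summed FPKM over 10 genes of 26.6 to 66.5 in B-ALL and 3.91 to 9.02 in dHet proB. Cd3d, Cd3e and Cd3g, chains of the T cell receptor complex, were at 1.18 to 5.54 FPKM in B-ALL and at most 0.245 in dHet proB. Monocyte markers rose for 4 of 8 genes tested and fell for 1, F13a1, with a log2 difference of -1.15 (limma adjusted p = 0.0444). Of all genes 14.5% rose and 11% fell. C1qa, a macrophage gene, was at 0 in all dHet proB libraries. Their part in the level of Ifitm3 was not tested. By mouse, the T cell sum was 66.5 and 59.3 FPKM in mouse 760, mostly Thy1 and Cd247, 27.2 and 27.6 in mouse 713, and 26.6 and 27.5 FPKM for mouse 686. More T cell markers went the other way. In mouse 760, 2 rose and 5 fell against mouse 713, beside 9.56% and 12.1% of all genes. Against mouse 686, 2 rose and 3 fell there, beside 3.56% and 3.47%. Cd3e was among those that fell, with log2 differences of -1.22 and -1.34. The monocyte sum was 39.4 and 39.5 FPKM in mouse 760, 167 and 176 in mouse 713, and 242 and 238 FPKM for mouse 686. Stroma markers, which would mark OP9 feeder cells, summed to 0.174 to 22.5 FPKM in B-ALL, 0.657 to 3.95 in dHet proB and 1.59 to 1.94 in wt proB.

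**Figure D4:**
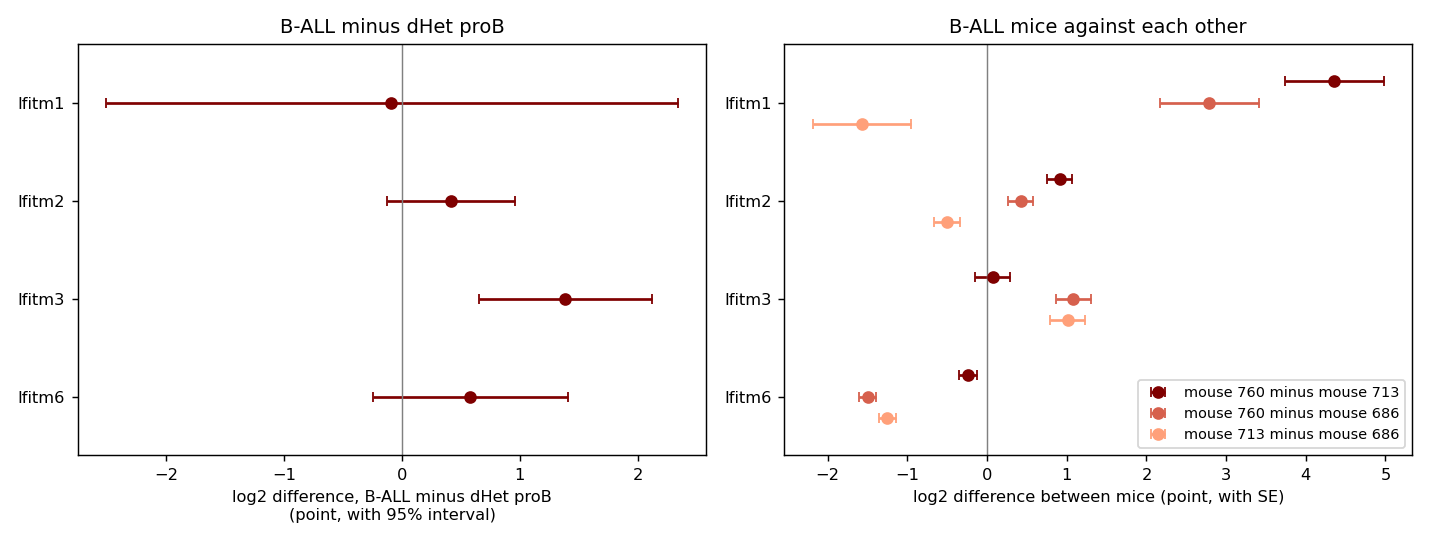
Log2 differences of the 4 tested members, B-ALL minus dHet proB on the left (point, with 95% interval) and each pair of B-ALL mice on the right (point, with SE). Ifitm3 lies above 0 on the left at 1.38, Ifitm1 spans -2.51 to 2.34, and Ifitm1 in mouse 760 minus mouse 713 reaches 4.36 on the right.

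The 3 leukemias differed from each other in all 4 tested members. The F test over the mice gave adjusted p = 0.0024 for Ifitm1, 0.00723 for Ifitm2, 0.0105 for Ifitm3 and 2.49e-05 for Ifitm6. Of all 11293 genes in that fit, 22.3% passed. Ifitm6 reached 1 FPKM only in mouse 686 and wt proB, and so passed the filter through the libraries where it was high. The libraries of mouse 760 and dHet proB were all at 0 and showed no spread, so that its p-value may be too small. The yardstick of this test is the spread between libraries within the 5 groups, dHet proB and wt proB included. No spread between leukemic mice enters it, so that the test speaks of these 3 leukemias only. Ifitm1 lost its call without mouse 760 (adjusted p = 0.185), Ifitm6 without mouse 686 (0.19), Ifitm3 without mouse 686 (0.896), and Ifitm2 without mouse 713 (0.317) or mouse 760 (0.0777).

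Ifitm1 rose in mouse 760 over mouse 713 by 4.36 on the log2 scale (SE 0.62, adjusted p = 0.00101), with mean FPKM of 1050 and 50.0. It also rose in mouse 760 over mouse 686, by 2.79 (SE 0.62, adjusted p = 0.027), while mouse 713 minus mouse 686 gave -1.57 (SE 0.62, adjusted p = 0.135). The order was therefore 760, 686, 713. The last pair did not pass, though mouse 686, at 141 and 160 FPKM, lay above mouse 713, at 50.5 and 49.6. Of all genes 21.7% passed in mouse 760 minus mouse 713, 7.03% in mouse 760 minus mouse 686 and 15.5% in mouse 713 minus mouse 686.

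Ifitm2 followed the same order at a smaller size. It rose in mouse 760 over mouse 713 by 0.91 (SE 0.16, adjusted p = 0.0029), at 597 and 316 FPKM, while the other pairs, 0.42 for mouse 760 minus mouse 686 and -0.5 for mouse 713 minus mouse 686, did not pass (adjusted p = 0.196 and 0.0647). Ifitm3 had another order. It was higher in mouse 760 than in mouse 686 by 1.08 (adjusted p = 0.018) and in mouse 713 than in mouse 686 by 1.01 (adjusted p = 0.0141), at 141, 135 and 66.3 FPKM in mice 760, 713 and 686. Mouse 760 minus mouse 713 gave 0.07 (SE 0.22, adjusted p = 0.887).

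Ifitm6 fell in mouse 760 and in mouse 713 against mouse 686, with log2 differences of -1.5 (adjusted p = 4.51e-05) and -1.25 (adjusted p = 7.1e-05) and mean FPKM of 0, 0.186 and 1.82 in mice 760, 713 and 686. Of the 10 neutrophil markers, 8 fell in each of these pairs of mice, for example S100a8, with a log2 difference of -4.11 for mouse 760 minus mouse 686 (adjusted p = 4.88e-05). Of all genes, 3.47% fell in mouse 760 and 6.5% in mouse 713 against mouse 686. Mouse 686 thus had both the highest Ifitm6 and the highest neutrophil markers among the leukemias.

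The rest of the interferon program was read from 44 interferon-stimulated genes, of which 42 were tested. Their median FPKM was 15.7 and 14.2 in mouse 760, 21.7 and 20.8 in mouse 713, with 7.96 and 7.66 in mouse 686. It was 12.6, 8.47 and 10.0 in dHet proB, with 12.5 and 14.1 in wt proB. The list was lowest in mouse 686, as Ifitm3 was among the mice, while Ifitm1 was lowest in mouse 713, where the list was highest. The wt proB libraries had medians within the range of the mutant libraries, although their Ifitm1 was at 3.04 and 5.81 FPKM.

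**Figure D5:**
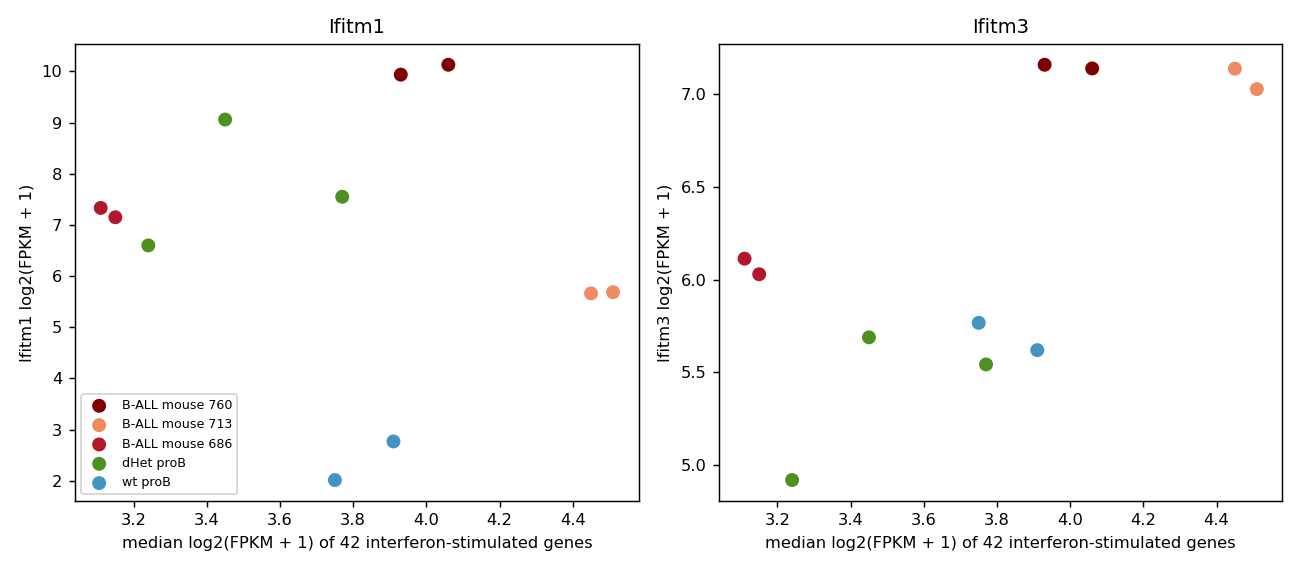
Ifitm1 (left) and Ifitm3 (right), as log2(FPKM + 1) on the vertical axes, against the median log2(FPKM + 1) of 42 interferon-stimulated genes on the horizontal axes, with one point per library. In the left panel mouse 713, with the highest medians, 21.7 and 20.8 FPKM, lies below mouse 760, and the wt proB libraries lie lowest.

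Against dHet proB, 7 of the 42 (16.7%) rose in B-ALL and none fell, beside 14.5% and 11% of all genes, and the median difference was 0.27 beside 0.04 for all genes. The share that rose is near the background. Oasl1, a 2'-5'-oligoadenylate synthetase-like protein, stood at 15.0 and 14.4 FPKM in mouse 760, 22.1 and 19.8 in mouse 713, 3.01 and 3.15 in mouse 686, and 0.8, 0.39 and 0.207 in dHet proB. It rose by 2.95 on the log2 scale (SE 0.57, adjusted p = 0.0101), and Oas1a, a 2'-5'-oligoadenylate synthetase, rose by 2.71 (SE 0.33, adjusted p = 0.00211).

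Against wt proB, 2 of the 42 rose in B-ALL and 5 fell (8.15% and 10% of all genes), with a median difference of -0.03 beside -0.02. Samd9l and Lgals3bp rose, by 1.34 and 1.18 on the log2 scale (adjusted p = 0.0226 and 0.0175). Ifi44 and Sp100 fell, with log2 differences of -1.98 and -1.77 (adjusted p = 0.0341 and 0.0498). In dHet proB none rose and 7 fell against wt proB (2.18% and 6.5% of all genes), with a median of -0.51 beside -0.04. The largest was Bst2, which encodes tetherin, a protein that holds budding viruses at the cell surface, at -2.73 (SE 0.26, adjusted p = 0.000744). These counts moved with single libraries: without wt proB library 1 or 2, none rose and 0 or 1 fell in B-ALL, and 1 fell in dHet proB in either case. Without a dHet proB library 3 or 4 fell in dHet proB. Rescaled to TPM, all calls against wt proB in B-ALL split into 513 higher and 1535 lower, in place of 905 and 1112. By the library separation used above for Ifitm1 and Ifitm2, 3 of the 42, Gbp2, Gbp3 and Gbp7, were higher in every dHet proB library than in wt proB and 21 were lower, beside 18.9% and 24.1% of all genes.

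Markers of plasmacytoid dendritic cells, which produce type I interferon, were lower in B-ALL and dHet proB than in wt proB. Of 8 markers, all fell in B-ALL and 7 fell in dHet proB against wt proB, with median log2 differences of -3.66 and -3.85. Of all genes 10% and 6.5% fell. Their summed FPKM was 19.0 to 33.4 in B-ALL, 44.9 to 69.9 in dHet proB and 301 to 446 in wt proB. At 1 FPKM or more stood 2 to 4 of the 8 in B-ALL, 2 or 3 in dHet proB and all 8 in wt proB. Siglech, a defining receptor of these cells, was at 0 in dHet proB and at 132 and 77.3 FPKM in wt proB, and Klk1 was at 0 in B-ALL and in dHet proB. Bst2 is itself a surface antigen of mouse plasmacytoid dendritic cells. The interferon-stimulated genes had median log2 differences from wt proB of -0.03 in B-ALL and -0.51 in dHet proB. The part of the plasmacytoid dendritic cell markers in these differences was not tested.

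Between the mice, 24 of the 42 passed the F test, beside 22.3% of all genes. Of the list 19 rose (45.2%) and 1 fell in mouse 713 over mouse 686, beside 9.03% and 6.5% of all genes, and 12 rose (28.6%) and none fell in mouse 760 over mouse 686, beside 3.56% and 3.47%. In mouse 760 against mouse 713, 5 rose and 10 fell, beside 9.56% and 12.1%. Usp18, which switches off type I interferon signalling, rose by 3.12 on the log2 scale in mouse 713 over mouse 686 (adjusted p = 0.000562) and fell in mouse 760 against mouse 713, with -2.23 (adjusted p = 0.00284). Ifi27l2a rose by 3.99 in mouse 713 over mouse 686 (adjusted p = 0.00119) and by 2.19 in mouse 760 over mouse 686 (adjusted p = 0.0493). Ifi44 rose by 1.81 in mouse 760 over mouse 713 (adjusted p = 2.71e-05), the pair in which Ifitm1 differed most.

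Transcripts of the interferons themselves were at or near 0. Of 10 interferon genes in the tables, 7 were at 0 in every library, and the highest value was 0.652 FPKM, for Ifng in a wt proB library. None passed the filter.

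Among 14 receptor and signalling genes, 1 rose and 3 fell in B-ALL against dHet proB (7.14% and 21.4%, beside 14.5% and 11% of all genes). Ifngr1, the ligand-binding chain of the receptor for interferon gamma, stood at 385 and 353 FPKM in mouse 760, 346 and 349 in mouse 713, 386 and 369 in mouse 686, 99.6, 74.0 and 126 in dHet proB, with 64.0 and 58.5 in wt proB. It rose by 1.89 over dHet proB (SE 0.19, adjusted p = 0.00116) and by 2.55 over wt proB (SE 0.22, adjusted p = 0.000415). All B-ALL libraries were above all others, and unlike Ifitm1 they were close to each other. Jak2 and Ifnar1, a chain of the type I receptor, fell in B-ALL against dHet proB, with log2 differences of -1.0 and -0.98 (adjusted p = 0.011 and 0.00863). Against wt proB, 1 rose and 3 fell in B-ALL, beside 8.15% and 10% of all genes, among them Ifnar2 at -0.99 (adjusted p = 0.00862). In dHet proB 1 rose and 1 fell, beside 2.18% and 6.5%: Ifnar1 rose by 0.87 (adjusted p = 0.0347) and Ifnar2 fell by 1.18 (adjusted p = 0.0049). Of the 14 genes, 5 passed the F test over the mice, beside 22.3% of all genes.

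Of 9 genes tested that encode interferon regulatory factors or proteins that bind IRF2, 1 rose (Irf3, by 0.55, adjusted p = 0.0323) and 2 fell in B-ALL against dHet proB, of which Irf4, a factor of B cell differentiation, fell by 1.39 (adjusted p = 0.0265). Of all genes 14.5% rose and 11% fell. Against wt proB none rose and 3 fell in B-ALL, with Irf4 at -2.66 (adjusted p = 0.00436) and Irf1 at -1.21 (adjusted p = 0.02), and none passed in dHet proB. Of all genes 8.15% rose and 10% fell in B-ALL against wt proB, and the plasmacytoid dendritic cell markers fell there too, 8 of 8; their part was not tested. Between mice, Irf8 was lower in mouse 760 than in mouse 713 by a log2 difference of -3.29 (adjusted p = 1.57e-05) and higher in mouse 713 than in mouse 686 by 3.84 (adjusted p = 1.14e-05). Irf8 was thus highest in mouse 713, the leukemia with the lowest Ifitm1.

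Of 12 genes known as partners or modifiers of IFITM proteins, 11 were tested. Cd81, a tetraspanin of the B cell surface, did not pass in B-ALL against dHet proB or against wt proB. It stood at 412 and 321 FPKM in mouse 760, 622 and 569 in mouse 713, 403 and 395 in mouse 686, 456, 636 and 348 in dHet proB, with 319 and 404 in wt proB, and the groups overlapped. Pik3ap1, an adaptor of PI3 kinase in B cells, fell in B-ALL, with log2 differences of -1.49 against dHet proB (adjusted p = 0.0271) and -2.59 against wt proB (adjusted p = 0.00645), the only one of the 11 that passed in either, beside 25.5% and 18.2% of all genes. None passed in dHet proB against wt proB. Nedd4, a ubiquitin ligase that acts on IFITM3 in human cells, rose in mouse 760 over mouse 713 by 2.01 on the log2 scale (adjusted p = 4.81e-05) and fell in mouse 713 against mouse 686, with -2.31 (adjusted p = 3.55e-05).

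The genes beside the cluster were compared to see whether they moved with it. Of 10 flanking genes, 6 were tested: Sirt3, Psmd13, Athl1, Pkp3, Sigirr and Ptdss2. None passed in B-ALL against dHet proB or in B-ALL against wt proB, and in dHet proB against wt proB only Pkp3, which encodes a desmosome protein, did, at -2.51 (adjusted p = 0.0233), in the direction opposite to Ifitm1. Sirt3, a mitochondrial deacetylase, gave 0.88 in B-ALL minus wt proB (SE 0.29, adjusted p = 0.0673). Psmd13, a proteasome subunit, stayed between 108 and 162 FPKM in all libraries. Beside Ifitm10, Tnni2, which encodes a troponin, rose in B-ALL by 1.75 over dHet proB (adjusted p = 0.00984) and by 2.31 over wt proB (adjusted p = 0.00575), while Ifitm10 stayed below 0.3 FPKM.

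The members were only partly alike across the 11 libraries, which share their groups and mice, so that these Pearson r values of log2(FPKM + 1) are a description. Ifitm1 and Ifitm2 had r = 0.881, Ifitm2 and Ifitm3 0.456, and Ifitm1 and Ifitm3 0.34. Ifitm6 had r = -0.766 with Ifitm1, -0.642 with Ifitm2 and -0.304 with Ifitm3. Of 11293 genes searched, the most like Ifitm1 were Rgcc (r = 0.96), Mov10 (0.939), Fubp3 (0.937), Epb4.1l4b (0.928) and Cacna1b (0.923). Rgcc, a regulator of the cell cycle, stood at 421 and 309 FPKM in mouse 760, 111 and 120 in mouse 713, 269 and 270 in mouse 686, 192, 180 and 284 in dHet proB, with 60.4 and 72.2 in wt proB. It had the same order of the mice as Ifitm1 over a smaller range, a likeness by which it was picked.

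Those most like Ifitm2 were Retsat (r = 0.973), Pla2g4a (0.964) and Igfbp4 (0.963), and those most like Ifitm3 were Sulf2 (0.952), Lck (0.952) and Tmem176b (0.95). Lck, a tyrosine kinase of the SRC family, stood at 325 and 270 FPKM in mouse 760, 208 and 196 in mouse 713, 83.6 and 83.0 in mouse 686, 62.6, 45.9 and 50.8 in dHet proB, with 49.3 and 44.9 in wt proB. It shared with Ifitm3 that mouse 686 was the lowest B-ALL mouse and that all B-ALL libraries lay above the rest. Lck was picked by this likeness, so the shared pattern is no separate finding.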

How the data were processed

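RNA-seq of total RNA was measured in 11 libraries. The submitters' processing notes name mm9 and, as tools, Cuffnorm 2.2.1, Cuffdiff, Cufflinks 2.2.1, STAR 2.5.3a and bcl2fastq (2.20.0.422 and 0.3.1). The annotation, strand setting and scaling were not named there. The authors deposited 1 table of FPKM per library, for 24319 genes. FPKM sums were 505261 to 638953. Since the scaling was not named, it is unknown whether the scale is common to all libraries. Absolute depth is unknown. From the steps of low values, 1 fragment was worth 1.13 to 1.57 times as much in the other libraries as in the first library of mouse 686.

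The members and gene lists were chosen with earlier results of these data known. log2(FPKM + 1) was fitted with limma 3.58.1 (R 4.3.3, mean-variance trend, two-sided, Benjamini-Hochberg, threshold 0.05). The fit held 8 units (3 B-ALL mice, libraries averaged, 3 dHet proB and 2 wt proB libraries) and the 11110 genes that reached an FPKM of 1 in 2 or more units. Mice were compared by the F test and pairwise in a fit of all 11 libraries in 5 groups (11293 genes). The fits were tested on simulated data. Named genes were all members, flanking genes by annotation order, the up to 2 most changed genes called per list, comparison and direction, and the most correlated genes. Rgcc and Lck were chosen from the last after their values were seen, as were the marker genes given beside results. Sequences are from RefSeq GRCm38.p6, another build than mm9, in which all 5 members matched. No 2 libraries were identical. Libraries with the same number deviated together between mice (r = 0.635, 0.204 and 0.134), a hint from the data and not the labels, but not between the 3 groups. Alternatives tried were the pseudocount, the filter, scaling, variance trend, left-out libraries or mice, use of single libraries, and the replicate block.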

Additional observations from a re-analysis of the deposited data

Results flagged for a closer look

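All 4 tested members were noted because the leukemias of the 3 mice differed by a test of the difference itself, the limma F test over mice. The adjusted p was 0.0024 for Ifitm1, 0.00723 for Ifitm2, 0.0105 for Ifitm3 and 2.49e-05 for Ifitm6. Mean FPKM in mice 760, 713 and 686 was 1050, 50.0 and 151 for Ifitm1, 597, 316 and 447 for Ifitm2, 141, 135 and 66.3 for Ifitm3, and 0, 0.186 and 1.82 for Ifitm6. Both libraries of a mouse lay on the same side of those of the other mice, except for Ifitm3 in mice 760 and 713, which touched at 140 FPKM. The spread in this test is between libraries within the 5 groups, dHet proB and wt proB included. For Ifitm6 the libraries of mouse 760 and dHet proB were all at 0 and showed no spread. It reached 1 FPKM only in mouse 686 and wt proB, and so passed the filter through the libraries where it was high. The p-value of Ifitm6 is therefore not a reliable gauge of its difference. Without mouse 686 the F test gave Ifitm6 an adjusted p of 0.19. What differs between the leukemias was not tested.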

How the results depend on the processing

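The counts of members called moved with the samples used. In B-ALL minus dHet proB, 1 member passed, and 0 to 2 did when 1 library or mouse was left out: 0 without the first dHet proB library, and 2 without mouse 713, where Ifitm2 had an adjusted p of 0.0486. With the replicate block 2 passed, Ifitm3 and Ifitm6 (adjusted p = 0.00229). That fit took single libraries, not mice, as units, so it measured against the spread of libraries within groups and not between mice. The third dHet proB library, the only library with its replicate number, had no weight in it. The added call is therefore not evidence across mice. Between mice 4 passed, and 2 to 4 did when 1 library or mouse was left out, with 2 without mouse 686 and 2 without mouse 760. Ifitm2 lost its call between mice without mouse 713 (adjusted p = 0.317), mouse 760 (0.0777) or either library of mouse 713 (0.0682 and 0.0606). Ifitm3 lost its call without either library of mouse 686 (0.0764 and 0.0507). The cause of each lost call was not tested. The difference of Ifitm1 in B-ALL minus dHet proB, -0.09, changed sign to 0.575 without the third dHet proB library, 0.118 without mouse 686, 0.901 without mouse 713 and 0.575 with the replicate block (adjusted p = 0.12); it ranged from -1.28 to 0.90 over all alternatives. Ifitm1 minus wt proB kept its sign throughout, at 4.07 to 6.25 in B-ALL and 4.68 to 5.91 in dHet proB. Ifitm3 in B-ALL minus dHet proB was 1.15 to 1.73 with adjusted p of 0.000179 to 0.05. Ifitm6 minus wt proB was -3.73 in B-ALL and -5.65 in dHet proB with a pseudocount of 0.1. Ifitm10, tested only without the filter, gave 0.106 in B-ALL minus dHet proB (adjusted p = 0.257). Of all genes, 1614 were higher in B-ALL minus dHet proB (810 to 3178 over alternatives) and 1218 lower (582 to 2508); 905 higher (61 to 2711) and 1112 lower (134 to 2829) in B-ALL minus wt proB; 242 higher (13 to 914) and 722 lower (63 to 1859) in dHet proB minus wt proB; and 2513 called between mice (625 to 5073). Quantile normalization gave 456 higher and 634 lower in dHet proB minus wt proB. Interferon-stimulated genes that rose in B-ALL against dHet proB numbered 6 to 18, and those that fell against wt proB 0 to 14 in B-ALL and 1 to 18 in dHet proB. The highest counts came under the replicate block, which took single libraries as units. Across the 3 groups replicate numbers did not pair the libraries: the deviations of same-numbered libraries had r from -0.133 to 0.113. Over all 20 same-numbered pairs, which include those between mice, 9 were above 0.1, up to 0.635. Where both groups have 2 libraries, both pairs give the same r. Between the mice, where the numbers did pair them, the replicate block changed no call of a member and gave 3118 genes called. With 2 wt proB libraries, and with FPKM that holds no counts, no counting error can be given.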

Other observations

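Other genes of the dispanin group, to which the IFITM genes belong, were mostly silent: 9 were in the tables and 3 passed the filter. Ifitm5, the bone gene of the cluster, was at 0.392 to 1.86 FPKM in B-ALL, 0.078 to 1.22 in dHet proB and 0.244 to 0.345 in wt proB, so that every B-ALL library was above both wt proB libraries and the dHet proB libraries overlapped both groups. Such an upward separation of B-ALL from wt proB was seen for 23.5% of all genes, and Ifitm5 did not pass the limma test in that comparison (adjusted p = 0.379). Ifitm7 was at 0 in every library except those of mouse 760, at 0.101 and 0.0514 FPKM. Tmem91 stood at 9.42 and 11.1 FPKM in mouse 760, 2.61 and 2.12 in mouse 713, 11.5 and 14.2 in mouse 686, while dHet proB held 2.27, 2.5 and 2.16 FPKM and wt proB held 22.9 and 23.4 FPKM. It fell in dHet proB against wt proB, with a log2 difference of -2.87 (SE 0.53, limma adjusted p = 0.0133) and fell in mouse 713 against mouse 686, with -2.04 (adjusted p = 4.56e-05).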
